A study of Mus musculus with 6 samples.

Results

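The Prl2c genes of the mouse encode the proliferins, a small set of near-identical secreted proteins of the prolactin and growth hormone family. They were taken as the rows of the gene count table that carry the symbols Prl2c1, Prl2c2, Prl2c3, Prl2c4 and Prl2c5. Of these 5 symbols 4 had a row, among 35976 rows in all. The symbol Prl2c4 had none, and in the RefSeq gene table it is an older name of Prl2c3. The set was chosen with its difference between the groups already known, so the reads, ratios and fold changes of its members below are a description and carry no test.

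Proliferins are hormones of the rodent placenta, made in large amounts by trophoblast giant cells. They are also known from cultured mouse fibroblast lines, where serum and growth factors induce them, partly through the transcription factor AP-1. The secreted protein binds the mannose 6-phosphate and insulin-like growth factor 2 receptor, acts on blood vessel growth, and holds back muscle differentiation in cultured myoblasts.

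Polyadenylated RNA was sequenced from chondrocytes, the cells that make cartilage matrix, of hind limb articular cartilage of embryos at day 18.5 on a C57BL/6 x 129S4/SvJae background. Cells of both groups were expanded on plastic for 16 population doublings with doxycycline at 2 µg/ml, which switched on an H3.3 transgene. In the H3K9M group (3 libraries, replicates 1, 3 and 5) the histone carried methionine at lysine 9, a change that lowers methylation of that residue on other histones. In the H3WT group (3 libraries, replicates 1, 2 and 4) it was wild type. That methylation is a mark of silenced chromatin, and the comparison asks which transcripts differ in expanded cells when it is suppressed. The labels do not say which promoter or cell type drives the transgene, nor whether replicates came from separate embryos, so the spread between libraries may be partly technical.

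Libraries held 15113675 to 19606082 reads assigned to genes. Along the first principal component (35.5% of the variance) H3K9M replicate 3 and H3WT replicate 2 lay together, away from H3WT replicates 1 and 4, so the main axis did not follow the groups. Along the second (28.8%) the 3 H3K9M libraries lay on one side and the 3 H3WT libraries on the other. Of the 15 chondrocyte markers on the list used here, all were measured, with a summed level of 7544 to 11733 CPM in H3K9M and 7405 to 19439 CPM in H3WT. CPM are counts scaled to a common library size, here with TMM factors that also adjust for composition. With 3 libraries in each group, the edgeR quasi-likelihood test called 0 of 13761 tested genes at a Benjamini-Hochberg adjusted p under 0.05 (0%), with 1677 (12.2%) at an unadjusted p under 0.05. DESeq2 called 390 of 13752 genes (2.84%) and limma-voom 0.

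Prl2c3 (chr13:12790816-12800093, minus strand, GRCm38.p6), Prl2c2 (chr13:12996120-13005393, minus strand) and Prl2c5 (chr13:13182703-13191930, plus strand) lie near each other. Prl2c1 (chr13:27849341-27857791, plus strand) lies apart from them, among the other prolactin family genes. Each main transcript has 5 exons in the GENCODE M21 annotation. The coding sequences of Prl2c3 and Prl2c2 are both 675 bases long and differ at 3 of them (99.6% identity). Prl2c5 is 96.0% identical to Prl2c3 and 96.1% to Prl2c2, and Prl2c1 is 91.4% identical to Prl2c3. Counted from the first base of the start codon, with the base of Prl2c3 first, the differences of Prl2c2 are C14T, A200C and G319T. The coding stretches around them are printed because reads can be told apart between these genes there. Capitals mark the 3 distinguishing bases in Prl2c3 and, in the other genes, each base that differs from Prl2c3. Bases 1 to 39 read as follows.
Prl2c3: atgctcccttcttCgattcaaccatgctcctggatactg
Prl2c2: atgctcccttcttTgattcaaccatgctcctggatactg
Prl2c5: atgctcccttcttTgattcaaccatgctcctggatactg
Bases 175 to 225 of the coding sequence read as follows.
Prl2c3: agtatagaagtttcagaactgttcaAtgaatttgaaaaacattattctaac
Prl2c2: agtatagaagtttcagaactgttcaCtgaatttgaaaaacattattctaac
Prl2c5: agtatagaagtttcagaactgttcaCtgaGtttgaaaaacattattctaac
Bases 294 to 344 read as follows.
Prl2c3: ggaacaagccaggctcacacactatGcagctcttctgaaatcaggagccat
Prl2c2: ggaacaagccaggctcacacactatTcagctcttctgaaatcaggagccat
Prl2c5: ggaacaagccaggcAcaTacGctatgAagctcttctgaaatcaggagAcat
In these stretches Prl2c5 holds the Prl2c2 base at positions 14 and 200, and it carries further differences of its own in the second and the third stretch.

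The transcripts leave little room for reads that belong to one gene alone. Of all 75-base windows along the Prl2c2 transcript, 19.9% (153 of 768) occurred in no transcript of another gene. The share was 30.1% (236 of 783) for Prl2c3, 80.4% for Prl2c5 and 92.1% for Prl2c1. With 50-base windows it was 10.5%, 21.4%, 61.4% and 80.9% in the same order, and with 100-base windows 33.6%, 37.7%, 91.3% and 100%. The read length and the handling of reads with several alignments are not given in the sources used here. Counts of Prl2c2 and Prl2c3 are therefore uncertain as a split between them, and low if such reads were discarded. Those of Prl2c5 and Prl2c1 depend less on shared sequence.

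**Figure D1:**
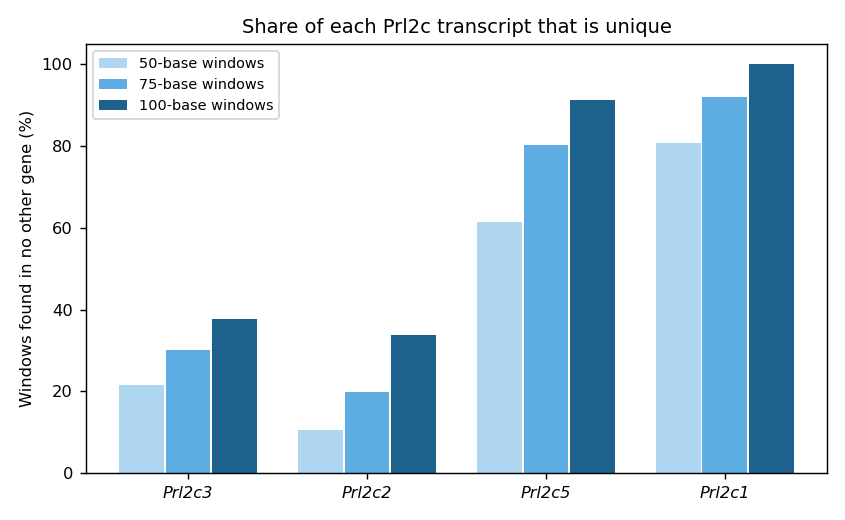
Percent of windows of 50, 75 or 100 bases along each Prl2c transcript (x axis) that are found in no transcript of another gene in GENCODE M21 (y axis). Prl2c2 and Prl2c3 stay under 38% at every window length, while Prl2c5 and Prl2c1 reach 91.3% and 100% at 100 bases.

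Prl2c3 and Prl2c2 were read in every H3K9M library and almost not at all in H3WT, and the other members were at or near 0 everywhere. Prl2c3 had 52, 739 and 43 reads in H3K9M replicates 1, 3 and 5, and 0, 1 and 0 reads in H3WT replicates 1, 2 and 4. Every H3K9M library lay above every H3WT library, and replicate 3 stood far above the other two. In CPM its H3K9M values were 3.48, 35.7 and 2.19, a mean of 13.8 ± 19.0 CPM (SD, n = 3), against 0.0173 ± 0.0300 CPM in H3WT. Pooled over libraries, the ratio was 816, with a 95% exact counting interval of 146 to 32285. That interval covers counting error only, and it rests on the single H3WT read. Without H3K9M replicate 3 the ratio was 149 (interval 26.1 to 5936), so that library moved the size by far more than 1.5 times while the other two still lay above H3WT. Prl2c3 was the only member past the filter on low counts, which it passed through the group where it is high, and its log2 ratio of H3K9M over H3WT, as fitted by edgeR, was 9.10 (± 1.80 SE). With 1 read in H3WT, that fitted value depends on the small count the model adds. Over all 13761 tested genes, 10.7% had all 3 H3K9M libraries above all 3 H3WT libraries. Nothing is read from that share, because the set was chosen on this contrast.

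Prl2c2, long known as Plf, had 7, 300 and 25 reads in H3K9M replicates 1, 3 and 5 and 0 reads in each H3WT library. The groups did not overlap, and replicate 3 was again the highest. Its H3K9M level was 0.469, 14.5 and 1.28 CPM, a mean of 5.41 ± 7.88 CPM (SD, n = 3). Set against a floor of 3 reads over the H3WT group, Prl2c2 was at least 108-fold higher in H3K9M. Without replicate 3 it was at least 16.7-fold higher, and taken alone replicates 1 and 5 gave at least 8.45-fold and 23.0-fold.

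Prl2c5 had 1 read, in H3K9M replicate 5, and 0 in the other 5 libraries. Prl2c1 had 0 reads in all 6 libraries. A count of 0 allows up to 3 reads, a level of 0.145 to 0.201 CPM depending on the library, and no fold is given for either gene. In H3K9M replicate 3, where Prl2c2 and Prl2c3 together had 1039 reads, Prl2c5 had 0, although most of its windows are its own.

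**Figure D2:**
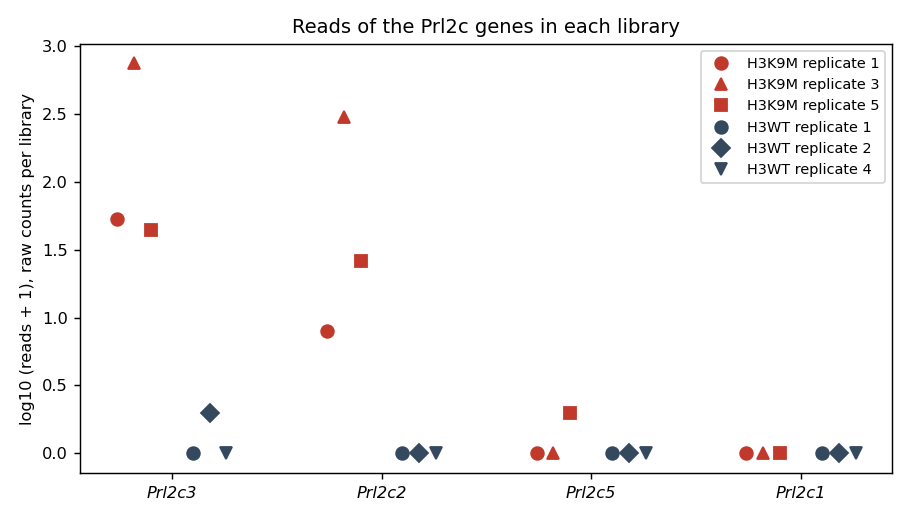
Raw reads per library (y axis, log10 of reads + 1) for the 4 Prl2c genes with a row (x axis), with 1 point per library. Prl2c3 and Prl2c2 lie above 0 in the 3 H3K9M libraries and highest in replicate 3, with 739 and 300 reads, while the H3WT libraries hold 1 read in all.

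Because reads can move between such similar genes, the family was also counted as 1 unit. The summed Prl2c reads were 59, 1039 and 69 in H3K9M (replicates 1, 3, 5) against 0, 1 and 0 in H3WT (replicates 1, 2, 4). This corresponds to 3.95, 50.2 and 3.52 CPM, a mean of 19.2 ± 26.8 CPM (SD, n = 3), against 0.0173 ± 0.0300 CPM. Replicates 1 and 5 were close to each other, and replicate 3 gave 89.0% of all Prl2c reads of the group. The pooled ratio was 1142 (95% exact counting interval 205 to 45160), and 200.4 (35.3 to 7977) without replicate 3. The log2 ratio fitted to the sum was 9.57 (± 1.92 SE). It was 7.22 without H3K9M replicate 3 and 11.44 without H3WT replicate 2, the library that holds the single H3WT read. These libraries are bulk RNA, in which more cells of a kind that makes the transcript and more transcript per cell cannot be told apart.

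The split between the paralogs varied between libraries. Prl2c2 took 11.9% of the Prl2c reads in H3K9M replicate 1 (7 of 59, 95% Wilson interval 5.87% to 22.5%), 28.9% in replicate 3 (300 of 1039, 26.2% to 31.7%) and 36.2% in replicate 5 (25 of 69, 25.9% to 48.0%). The interval of replicate 1 did not overlap those of the other two, which overlapped each other. Per kilobase of transcript, Prl2c3 had 7.30, 2.42 and 1.69 times the reads of Prl2c2 in replicates 1, 3 and 5. Per unique 75-base window the ratios were 4.82, 1.60 and 1.12. At 50 bases the ratio in replicate 5 was 0.825, so the order of these genes there depends on the read length assumed.

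A gene at most at 3 reads over the H3WT group and above 3 reads in every H3K9M library was uncommon. This rule was chosen after the data were seen and describes the same contrast. It held for 101 of the 19994 genes with a read (0.505%), and for 18 genes (0.09%) in the opposite direction. Prl2c3 had the most H3K9M reads of the 101 (834, not scaled for gene length) and Prl2c2 had rank 3 with 332. Between them stood Myl1, a myosin light chain of muscle, with 165, 274 and 15 reads in H3K9M replicates 1, 3 and 5. Both Prl2c ranks rest on replicate 3. In replicates 1 and 5 Prl2c3 had 52 and 43 reads and Prl2c2 had 7 and 25, against 46 and 98 for LOC101056073, which had rank 4. The median of the 101 genes was 31 reads. In these genes H3K9M replicate 3 held a median of 38.5% of the group's reads, close to its 37.5% of the group's normalised library size. It held 88.6% of Prl2c3 and 90.4% of Prl2c2, the 2 highest shares among the 101. Leaving out a library can only keep or raise the number of such genes, because fewer libraries then have to meet the rule. It rose from 101 to between 159 and 240.

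**Figure D3:**
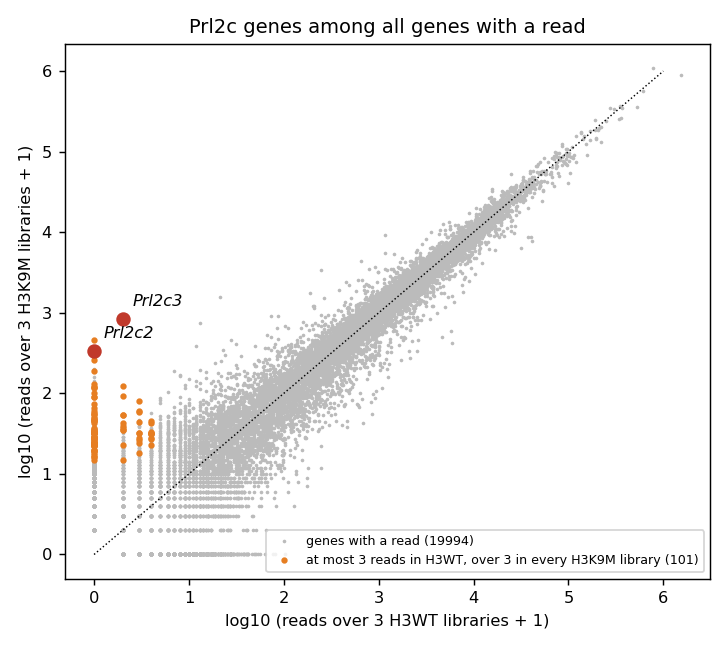
Reads summed over the 3 H3WT libraries (x axis) and over the 3 H3K9M libraries (y axis), both as log10 of reads + 1, for the 19994 genes with a read. Orange points are the 101 genes at 3 reads or fewer in H3WT and above 3 in every H3K9M library, Prl2c3 and Prl2c2 are marked in red near the top of them, and the dotted line marks equal sums.

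Upstream of the start sites, the RefSeq promoter table (GRCm38.p6) held Prl2c3 and Prl2c5, a read and a nearly unread member. Their 250 bases before the start are printed because the sequences are close while the reads are not (chr13:12800080-12800329, minus strand, and chr13:13182466-13182715, plus strand). They are counted from the start sites of that table, which lie slightly inside the gene bounds given above, so each window takes in the first bases of the gene body. Aligned, they are 96.0% identical, with 8 substitutions and 2 gap positions. Capitals mark the bases that differ or have no partner.
Prl2c3: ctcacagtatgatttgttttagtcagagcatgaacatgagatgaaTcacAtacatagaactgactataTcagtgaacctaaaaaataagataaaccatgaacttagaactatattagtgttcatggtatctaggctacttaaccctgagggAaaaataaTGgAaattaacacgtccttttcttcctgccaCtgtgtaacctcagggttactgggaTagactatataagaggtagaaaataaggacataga
Prl2c5: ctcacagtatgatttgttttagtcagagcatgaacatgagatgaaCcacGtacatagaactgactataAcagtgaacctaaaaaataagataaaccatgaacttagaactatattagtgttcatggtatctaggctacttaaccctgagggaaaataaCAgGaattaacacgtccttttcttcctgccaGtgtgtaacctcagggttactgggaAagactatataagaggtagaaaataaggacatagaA
Motifs were searched on both strands from 250 bases before to 50 after the start site, in 32851 promoters of the same length. TATATAA, which holds the core promoter element named for its letters, begins at -30 in Prl2c3 and at -31 in Prl2c5 and occurs in 3.24% of promoters. AGATAA, a form of the site of GATA factors, begins at -163 in both and occurs in 11.2%. TGANTCA, which includes the AP-1 site TGAGTCA, occurs in 7.81% of promoters. It has 1 match in Prl2c3, which begins at -209 and reads TGAATCA, and 0 in Prl2c5, where 1 of the 7 letters is among the differing bases. TGAGTCA itself (5.20% of promoters) is in neither window. These matches describe the letters of the 2 windows and are not measured binding sites.

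Neighbouring genes with enough reads to be tested had overlapping levels in the groups. Among the 5 nearest annotated genes on each side of each member there were 30 other genes, of which 10 had a row in the count table and 3 passed the filter on low counts. Gpr137b-ps, a transcribed pseudogene before Prl2c3, had 27.1 ± 3.96 CPM (SD, n = 3) in H3K9M against 24.0 ± 1.39 in H3WT (log2 ratio 0.17 ± 0.17 SE, edgeR adjusted p 0.731). Ero1b, an oxidase of protein folding counted under its older symbol Ero1lb, had 5.12 ± 0.324 against 5.52 ± 1.14 CPM (log2 ratio -0.11 ± 0.33 SE, adjusted p 0.93). Gm2423, a transcribed pseudogene after Prl2c5, had 3.12 ± 0.115 against 3.02 ± 0.332 CPM (log2 ratio 0.05 ± 0.42 SE, adjusted p 0.977). The groups overlapped for all 3 genes. Of the other 7, 6 had 0 reads in every library, among them the non-coding genes Gm40904 and Gm40903 on either side of Prl2c2.

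The seventh was Gm7040 (chr13:13320830-13322532), a gene annotated as protein-coding whose transcript shares sequence with the proliferins. It had 1, 6 and 0 reads in H3K9M replicates 1, 3 and 5 and 0 in the H3WT libraries. Of the 75-base windows of Prl2c3 and of Prl2c2, 154 in each occur in Gm7040 as well. Its highest count fell in the library with the most Prl2c reads, and whether its reads came from its own transcript or from a proliferin was not tested.

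**Figure D4:**
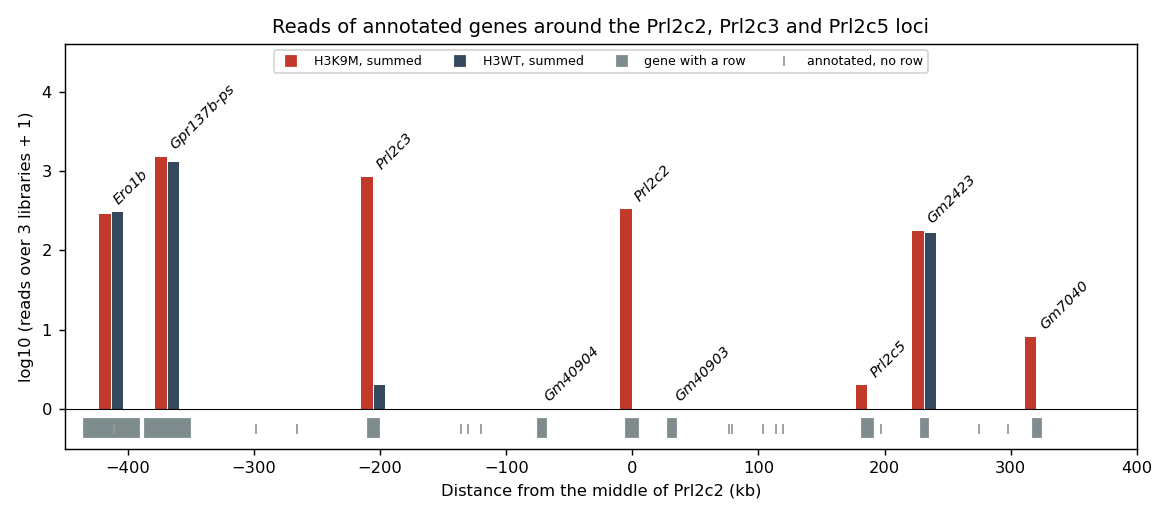
Reads summed over the 3 libraries of each group (y axis, log10 of reads + 1) for genes with a row near the Prl2c2, Prl2c3 and Prl2c5 loci, placed by distance from the middle of Prl2c2 in kb (x axis), with gene bodies as grey boxes and annotated genes without a row as ticks. Prl2c3 and Prl2c2 have tall bars in H3K9M, with 1 H3WT read for Prl2c3 and 0 for Prl2c2, while Ero1b, Gpr137b-ps and Gm2423 have bars of similar height in both groups.

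The remaining prolactin family was at or near 0 in these cells. Of 23 other family genes, including Prl (prolactin), Gh (growth hormone) and the placental lactogens Prl3d1 and Prl3b1, 22 had 0 reads in all libraries. Prl7a1 had 1 read, in H3WT replicate 1. Trophoblast markers were mostly at 0 as well. Of 24 genes 16 were at 0 in every library, among them Tpbpa and Tpbpb of spongiotrophoblast, the trophoblast factors Gcm1, Tfap2c, Eomes, Elf5 and Cdx2, and the placental cathepsins Ctsq, Ctsj and Ctsr. Hand1, a factor required for trophoblast giant cells, had 8, 0 and 3 reads in H3K9M replicates 1, 3 and 5 and 0 in H3WT. Syna, also on the list, had 0, 20 and 3 reads in the same H3K9M libraries and 0, 13 and 0 in H3WT replicates 1, 2 and 4. Whether cells with such transcripts gave the Prl2c reads was not tested. The summed trophoblast level was 99.5 to 119 CPM in H3K9M and 126 to 189 CPM in H3WT. It was carried by Gata2 and Peg10, which many other cell types express, and the 3 tested members had a median log2 ratio of -0.58 with none past the test. Gata2, which encodes a GATA factor of trophoblast and blood cells, had 29.1, 57.1 and 24.5 CPM in H3K9M against 56.1, 63.4 and 57.0 in H3WT (log2 ratio -0.67 ± 0.30 SE, edgeR adjusted p 0.425). Peg10, an imprinted gene needed in placenta, had a log2 ratio of -0.34 (± 0.24 SE, adjusted p 0.603). Gata3, a related GATA factor, had -0.58 (± 1.56 SE, adjusted p 0.92), and its sign turned with limma-voom (0.98) and without H3WT replicate 1 (2.51).

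Genes on the receiving side of proliferin and prolactin had reads in both groups, though few for the receptor gene Prlr. Of 13 receptor and JAK-STAT genes all were tested and 0 passed, with 1 higher and 1 lower at an unadjusted p under 0.05, beside 6.42% and 5.77% of all tested genes. In 2 of the 13 all H3K9M libraries lay above all H3WT libraries and in 4 below, beside 10.7% and 8.68% of all tested genes. Their median log2 ratio was -0.24, beside -0.003 for all tested genes. The summed level of the 13 was 1079 to 1181 CPM in H3K9M and 1202 to 1280 CPM in H3WT, which was not tested. Igf2r, the receptor that proliferin binds, had 315.1, 368.2 and 363.1 CPM in H3K9M against 317.6, 340.0 and 273.0 in H3WT. The groups overlapped (log2 ratio 0.17 ± 0.13 SE, edgeR adjusted p 0.649). Prlr, the prolactin receptor, had 14, 16 and 36 reads in H3K9M and 12, 0 and 10 in H3WT, with no overlap in CPM. Its log2 ratio was 1.49 (± 1.22 SE, edgeR adjusted p 0.662). The smallest p-values in this list were those of Socs2, Jak2 and Ptpn11. Socs2, a feedback inhibitor of growth hormone signalling, had 14.4, 19.4 and 14.8 CPM in H3K9M against 8.36, 12.8 and 9.07 in H3WT (log2 ratio 0.68 ± 0.25 SE, adjusted p 0.351). Jak2, the kinase bound to these receptors, had a log2 ratio of -0.31 (± 0.13 SE, adjusted p 0.408), and Ptpn11, a phosphatase of the pathway, of -0.27 (± 0.12 SE, adjusted p 0.42).

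AP-1 subunits and serum-induced genes, known as regulators of proliferin transcription or as its companions in the serum response, were higher as often as lower. Of 19 genes 18 were tested, 0 passed, 9 were higher and 9 lower, and the median log2 ratio was 0.01. Their summed level, in which abundant members such as Fosl2 weigh most, was lower in H3K9M. It was 1142 to 1183 CPM there and 1318 to 1443 CPM in H3WT, a difference that was not tested. Fosl2, an AP-1 subunit, had 239.0, 142.4 and 241.8 CPM in H3K9M against 477.7, 318.5 and 462.6 in H3WT (log2 ratio -1.01 ± 0.24 SE, edgeR adjusted p 0.222). It passed with DESeq2 (adjusted p 0.0054). Junb, another subunit, had 97.3, 84.7 and 104.1 CPM against 73.9, 67.9 and 61.8 CPM (log2 ratio 0.49 ± 0.13 SE, adjusted p 0.239). For both genes the groups did not overlap, and they lay in opposite directions. In 1 of the 18 tested members all H3K9M libraries lay above all H3WT libraries and in 1 below, beside 10.7% and 8.68% of all tested genes. Mafk, a small Maf factor, had a log2 ratio of 0.29 (± 0.16 SE, adjusted p 0.501). Looked at after the values were seen, 5 members (Fosl1, Jun, Mafk, Egr1 and Dusp6) were highest in H3K9M replicate 3 among the 6 libraries. Fosl1 had 118.3 CPM there and 51.1 to 86.1 CPM in the others, Jun 172.2 against 78.1 to 117.1 CPM, and Dusp6, a feedback phosphatase of growth factor signalling, 47.4 against 8.20 to 26.4 CPM. Egr1, an early growth response factor, had 104.3 CPM there and 54.2 to 90.6 CPM in the others, and Mafk 37.8 against 25.5 to 35.8 CPM. Other members, Fosl2, Jund, Srf and Ier3, were lowest in that library. Jund had 92.4 against 127.6 to 152.8 CPM and Srf 73.6 against 100.8 to 150.8 CPM. The share of all tested genes that were highest in that library was not counted. The log2 ratio of Fosl1 was 0.33 with that library and -0.035 without it, and that of Jun 0.063 and -0.38. Their part in the Prl2c level of that library was not tested.

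Growth factors and receptors that can induce proliferin, angiogenic factors and cell cycle genes likewise had 0 members past the test. In the growth factor list 16 of 18 genes were tested, with 1 higher and 3 lower at an unadjusted p under 0.05, beside 6.42% and 5.77% of all tested genes, and a median log2 ratio of -0.24. In 0 of the 16 all H3K9M libraries lay above all H3WT libraries and in 4 below, beside 10.7% and 8.68% of all tested genes. The summed level of the list was 1719 to 1841 CPM in H3K9M and 1850 to 2488 CPM in H3WT, which was not tested. Its smallest p-values were those of Prkce, a protein kinase C (-0.87 ± 0.23 SE, adjusted p 0.239), Tgfbr2, a TGF-beta receptor (-0.72 ± 0.24 SE, adjusted p 0.308), and Fgfr2, an FGF receptor (-0.71 ± 0.26 SE, adjusted p 0.347). In the angiogenic list 14 of 17 genes were tested, with a median log2 ratio of -0.42 and 10 lower. Ccn1 and Ccn2 had no row under these symbols, and other symbols for them were not searched. Angpt2 did not pass the filter on low counts. Adm, which encodes the vasoactive peptide adrenomedullin, had 43.1, 17.2 and 40.6 CPM in H3K9M against 157.5, 116.3 and 154.0 in H3WT. The groups did not overlap (log2 ratio -2.09 ± 0.34 SE, edgeR adjusted p 0.17), and DESeq2 called it (adjusted p 1.18e-07). Of the 14 tested members, 0 had all H3K9M libraries above all H3WT libraries and 1 below, beside 10.7% and 8.68% of all tested genes. Angpt2, which was not tested, had 12, 28 and 6 reads in H3K9M replicates 1, 3 and 5 and 0 in each H3WT library. It had rank 30 among the 101 genes described above. Thbs1, a secreted inhibitor of vessel growth, had a log2 ratio of -0.77 (± 0.34 SE, adjusted p 0.41) and Hgf, a growth factor, of -0.74 (± 0.38 SE, adjusted p 0.466). All 20 cell cycle genes were tested, 0 of them at an unadjusted p under 0.05, with a median of -0.09. Their summed level was 2976 to 3069 CPM in H3K9M and 2447 to 3644 CPM in H3WT, and in H3K9M replicate 3 it was 2976 CPM. Ccnd1 gave 939 CPM of that, its highest level in any library. Mki67 (302 against 410 to 675 CPM) and Top2a (198 against 250 to 385 CPM) were lowest in replicate 3. So were Ccna2, Ccne1, Mcm2, Mcm3, Mcm5, Aurka, Aurkb, Plk1 and Bub1, while Ccnb1, Ccnb2, Cdk1, Pcna and Rrm2 were not. Cdkn1a was highest there, with 517 against 229 to 335 CPM. Cdkn2a (43.1 CPM) and Cdkn2b (82.0 CPM) were highest there too, and the sum includes these inhibitor genes. The share of all tested genes lowest or highest in that library was not counted. Cdkn2a, which encodes cell cycle inhibitors, had a log2 ratio of 0.89 (± 0.41 SE, adjusted p 0.432), Cdkn1a, another inhibitor gene, 0.48 (± 0.27 SE, adjusted p 0.505) and Mcm2, a replication helicase gene, -0.21 (± 0.17 SE, adjusted p 0.658).

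**Figure D5:**
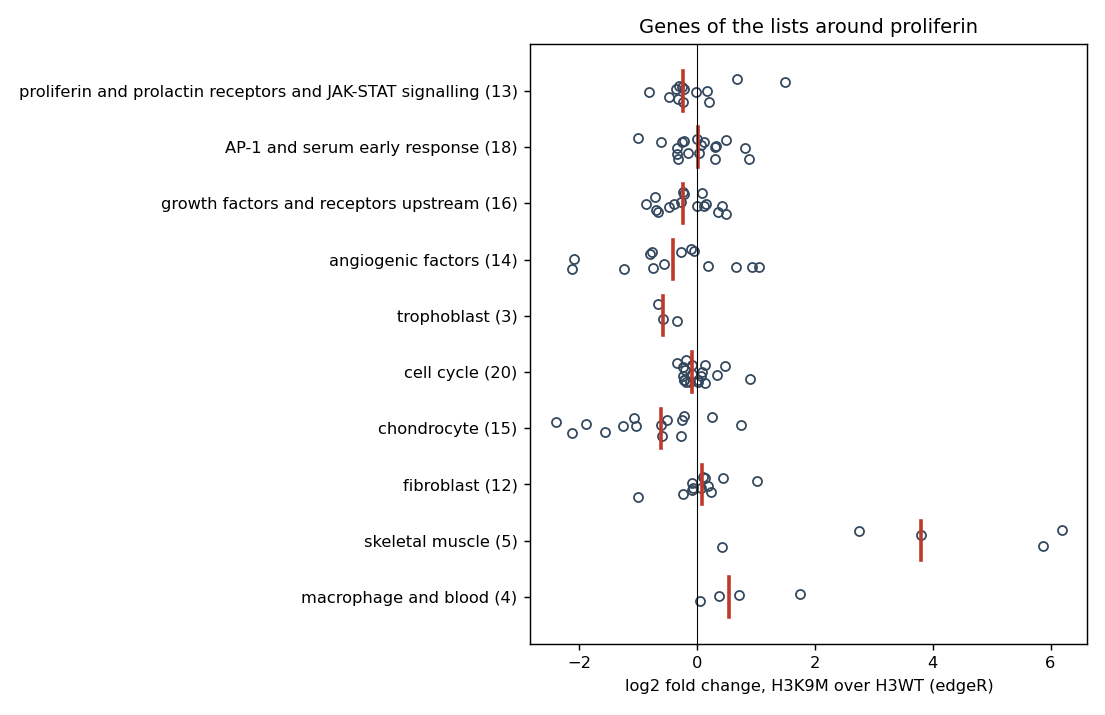
The edgeR log2 fold change of H3K9M over H3WT (x axis) for each tested gene (open circles) of the lists with a tested member (rows, number tested in brackets), with red bars at the list medians. Medians of the receptor, AP-1, growth factor and cell cycle lists lie between -0.24 and 0.01, and that of the skeletal muscle list at 3.80. In the muscle list Myod1 and Myh3 passed the filter on low counts through H3K9M, the group where they are high.

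The summed level of skeletal muscle markers was also highest in H3K9M replicate 3. Their summed level over 12 genes was 164, 233 and 26.9 CPM in H3K9M (replicates 1, 3, 5) against 32.0, 13.2 and 27.4 in H3WT (replicates 1, 2, 4). Replicate 5 lay within the H3WT range, and its Prl2c level of 3.52 CPM was close to the 3.95 CPM of replicate 1. The muscle actin gene Acta1 made most of the sum in H3WT replicates 1 and 4 (26.2 and 24.0 CPM). It had 5.97 CPM in H3K9M replicate 5. In that library Myod1, Myh3, Tnnt3 and Des each lay above every H3WT library, Tnnt3 with 5.97 CPM against 0.281 to 2.08 CPM. Myod1, the master regulator of the muscle fate, had 291, 1179 and 84 reads in H3K9M and 0, 20 and 0 in H3WT (log2 ratio 6.20 ± 1.53 SE, edgeR adjusted p 0.244). The ratio was 5.04 without H3K9M replicate 3 and 11.93 without H3WT replicate 2, the H3WT library that held all Myod1 reads of its group. Myog, which acts after it, had 60, 195 and 4 reads against 0 in each H3WT library, while Myf5, Myf6 and Pax7 were at 0 in all 6. Myh3, an embryonic myosin, had a log2 ratio of 5.88 (± 1.51 SE, adjusted p 0.249), which was 10.95 without H3WT replicate 1, the H3WT library with all Myh3 reads of its group. With H3WT at 0, such fitted values are no bound. Tnnt3, a troponin, had a log2 ratio of 2.75 (± 0.66 SE, adjusted p 0.216). Myod1 and Myh3 passed the filter on low counts through the group where they are high, so nothing is read from the count and median that follow. Of the 5 tested muscle genes, 0 passed, 4 were higher at an unadjusted p under 0.05, beside 6.42% of all tested genes, and the median was 3.80. DESeq2, which called 2.84% of all genes, called 2 of these, Tnnt3 and Des, the second of which encodes the muscle filament desmin. The part of cells with muscle transcripts in the Prl2c reads was not tested.

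Endothelial and blood markers were low. Endothelial genes summed to 1.12 to 1.30 CPM in H3K9M and 1.35 to 2.28 CPM in H3WT, with Cdh5, Tie1 and Emcn at 0 reads. Macrophage and blood genes summed to 11.4 to 22.9 CPM in H3K9M and 5.83 to 13.5 CPM in H3WT, with Ptprc, Adgre1 and Tyrobp at 0. Cd68, a lysosomal marker, had the smallest p there (log2 ratio 1.75 ± 0.76 SE, adjusted p 0.411), followed by Csf1r (0.72 ± 1.18 SE) and Lyz2 (0.37 ± 0.82 SE). Among the 15 chondrocyte genes the median log2 ratio was -0.61 and 0 passed. Prg4, lubricin of the joint surface, had 137.6, 130.9 and 128.9 CPM in H3K9M against 95.6, 68.0 and 74.6 in H3WT (log2 ratio 0.74 ± 0.15 SE, adjusted p 0.18). For Col9a2 (log2 ratio -2.13 ± 0.76 SE) and Col9a1 (-1.89 ± 0.75 SE), collagen genes of cartilage, the groups overlapped. The 12 fibroblast genes had a median of 0.09 and summed to 41992 to 52774 CPM in H3K9M and 30783 to 54395 CPM in H3WT. S100a4, a marker of fibroblasts, had a log2 ratio of 1.01 (± 0.16 SE, adjusted p 0.17), Fn1, fibronectin, 0.44 (± 0.18 SE, adjusted p 0.382) and Postn, periostin, -1.01 (± 1.10 SE, adjusted p 0.768).

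The genes whose pattern was most like that of the summed Prl2c reads were named by Pearson's r of log2 CPM over the 6 libraries, among 12880 tested genes with a mean of at least 1 CPM. The r values describe 6 points that share depth and library preparation, and no p is given. Most alike was 2810474O19Rik (r = 0.998), with 81.9, 136.5 and 80.9 CPM in H3K9M (replicates 1, 3, 5) against 46.1, 46.5 and 43.2 in H3WT (replicates 1, 2, 4). It shows the same order of libraries on a far smaller scale, with replicate 3 on top and replicates 1 and 5 nearly equal. The mitochondrial ATP synthase subunit gene ATP8 (0.996) followed, then Ppcdc of coenzyme A synthesis (0.993), the mitochondrial RNA-binding gene Fastkd2 (0.989) and the synaptic vesicle gene Syn1 (0.985). Next came the lipoxygenase gene Alox12 (0.984), Ralgapa2, a regulator of Ral GTPases (0.984), and Cwc27, a spliceosome component (0.984). Alox12 had 4.02, 11.7 and 3.88 CPM in H3K9M against 1.29, 1.87 and 1.06 in H3WT. Most opposite were Adm (-0.997), Smad9, an effector of BMP signalling (-0.996), Gpc3, a glypican (-0.994), and the G protein gene Gnai2 (-0.992). Gpc3 had 9.24, 3.33 and 9.64 CPM in H3K9M against 26.8, 29.3 and 35.5 in H3WT, lowest in the library where Prl2c was highest.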

How the data were processed

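The deposited table holds raw read counts per gene symbol, 1 column for each of 6 libraries, which the authors deposited unnormalized: all values are whole and column totals differ. The submitters' processing notes name HISAT2, featureCounts, DESeq2 and the mm10 build, without versions. The annotation, the strand setting and the treatment of multi-mapping reads are not given in the sources used here. Columns matched sample titles, and groups came from the titles.

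The main test used edgeR 4.0.16 (R 4.3.3): filterByExpr, TMM scaling, glmQLFit with robust estimation and glmQLFTest, with genotype as the only term and Benjamini-Hochberg adjustment over 13761 genes (threshold 0.05). A log2 ratio is the fitted log2 fold change, and its SE is that value over the square root of F. Log2 CPM used a prior count of 2. A floor of 3 counts was used per library, or over a group for a fold. Intervals (95%) are binomial intervals on read counts, so they cover counting error only and leave out the spread between libraries. They treat reads as independent, and the table records no molecular identifiers by which duplicates could be told. Scripts were tested on simulated data.

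Alternatives were DESeq2 1.42.0, limma-voom (limma 3.58.1), DESeq2's size factors, library size alone, other filters, no robust estimation, a threshold of 0.01 and leaving out each library. Members, the 12 lists and the rules were chosen with earlier results of these data known. Named were all Prl2c genes, the 3 smallest p-values of each list where none passed, the 5 nearest annotated genes on each side, and the 8 most alike and 4 most opposite genes; other named genes (such as Igf2r, Prlr, Myog, Hand1 and Des) were chosen after their values were seen. Windows and coding sequences came from the GENCODE M21 principal transcripts, and promoters and positions from RefSeq GRCm38.p6, the same build as mm10. Protein sequences were not used here.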

Additional observations from a re-analysis of the deposited data

How the results depend on the processing

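The direction of the summed Prl2c reads was the same under every alternative that gave a value. Their log2 fold change, 9.57 as reported, was 7.94 with limma-voom and ran from 7.22 (without H3K9M replicate 3) to 11.44 (without H3WT replicate 2) over fits lacking 1 library. No value was possible with at least 10 counts in every library, because H3WT holds 1 Prl2c read. That of Prl2c3, 9.10 as reported, was 7.47 with limma-voom, 6.82 without H3K9M replicate 3 and 10.97 without H3WT replicate 2.

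The count of changed genes, 0 as reported, was 390 with DESeq2 and 36 without the filter on low counts. Leaving out 1 library gave 0 to 91 (2 without H3K9M replicate 3, 91 without H3WT replicate 2). The cause was not tested. With DESeq2, Fosl2, Adm, Prg4, S100a4, Tnnt3 and Des passed among the named genes refitted, and S100a4 also passed without the filter. The refits covered the genes with a printed log2 ratio and Prlr, Fosl1, Jun, Egr1, Dusp6 and Des, and among these the sign turned for 6. For Gata3 it was 0.98 with limma-voom and, over the fits that leave out 1 library, -1.15 to 2.51 (2.51 without H3WT replicate 1). For Postn those fits gave -1.82 to 0.44 (0.44 without H3WT replicate 4), for Ero1lb -0.26 to 0.026 (0.026 without H3WT replicate 2) and for Gm2423 -0.027 to 0.13 (-0.027 without H3WT replicate 1). For Fosl1 they gave -0.035 to 0.60 (-0.035 without H3K9M replicate 3) and for Jun -0.38 to 0.27 (-0.38 without H3K9M replicate 3), with -0.021 for Jun with limma-voom. With the sign kept, Col9a1 was -1.16, Cd68 2.37 and Myod1 11.93 without H3WT replicate 2, Myh3 10.95, Csf1r 1.73 and Lyz2 1.16 without H3WT replicate 1, and Cd68 0.89 and Dusp6 0.041 without H3K9M replicate 3. No paired analysis was possible because the groups share only replicate number 1.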
